A study of Rattus norvegicus with 252 samples.

Results

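The genes described here are 227 rat genes whose level was lower at 6 than at 2 months in every sampled brain tissue of wild-type (WT) animals. They were picked from the 80 WT study libraries of 2 and 6 months on log2 CPM, read counts scaled to a common library total, by 3 conditions. The median level had to be at least 0 log2 CPM in each of the 4 tissues, which 13100 of the 32883 genes of the deposited table met. The tissue medians at 2 months had to span less than 2 log2 units, which left 11808 eligible genes. The median at 6 months then had to lie at least 0.15 log2 units below the median at 2 months in the striatum, cortex, hippocampus and cerebellum alike. Of the eligible genes, 1.92% met all conditions. A further 7 identifiers that the selection sets aside were all in the table, and 0 of them otherwise met the conditions. For scale, 152 eligible genes lay above their 2-month median by the same step in all 4 tissues. The table names genes by Ensembl identifier, and none of its identifiers matched the reference names at hand, so the genes are described by their values and are not named by function.

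The 4 tissues differ widely in their cells. The striatum holds mainly inhibitory projection neurons, the cortex and hippocampus mainly excitatory pyramidal and granule neurons, and the cerebellum mainly small granule neurons with Purkinje cells, and all share oligodendrocytes, astrocytes, microglia and vessels. Brain maturation continues after a rat is sexually mature: myelin is still being laid down, precursor cells divide less and less, and the matrix around neurons is remodelled. In bulk tissue, fewer cells of a type and less RNA per cell cannot be told apart.

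The animals were 60 Long Evans rats of 2, 6 or 12 months, either WT or carriers of 1 copy of the Q130 knock-in allele (heterozygous, called Q130 below), a model of Huntington disease, which is caused by a lengthened glutamine-coding repeat in the huntingtin gene. Each rat gave all 4 tissues, so the 240 study libraries formed 24 groups of 10, with 5 females and 5 males in each. All study libraries of 2 and 6 months were labelled batch 1 and those of 12 months batch 2. A further 12 striatal libraries of batch 2 were repeats of males of 2 and 6 months, 3 per age and genotype. The animal identifiers of 2 and 6 months shared 0 first parts, as did those of 6 and 12 months, so age and whatever that part stands for cannot be told apart. As no identifier could be named, which tested gene is huntingtin was not determined, and the tissue labels were not set against marker genes.

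Depth was 25.3 to 50.8 M counts per library with a median of 34.3 M, and the Q130 groups compared most here had 31.2 to 50.8 M at 2 months and 31.2 to 46.3 M at 6 months. In 9 study libraries, 8 of them Q130 and 1 WT, the median correlation with the other libraries of the labelled tissue was under 0.97. They are called libraries that stood apart. A pair of them came from 1 Q130 male of 6 months and went against its labels: the library labelled striatum (male 1) correlated at 0.986 with hippocampal libraries and 0.938 with striatal ones, and the library labelled hippocampus (male 5) at 0.983 with striatal libraries and 0.933 with hippocampal ones. The others were 1 Q130 hippocampal library of 6 months (male 3), 2 Q130 cerebellar libraries of 2 months (male 1 and male 2), 2 Q130 striatal libraries of 12 months (male 3 and female 2), 1 Q130 cortical library of 12 months (male 4) and 1 WT cortical library of 6 months (male 4). The main results that rest on them are given with and without them.

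The repeat libraries also went against their labels. Over 59 genes whose level followed the animal across the other tissues, 10 of which are among the 227, each of the 60 first striatal libraries correlated best with its own animal (r from 0.508 to 0.985). Of the 12 repeat libraries, 2 did so, 8 correlated best with an animal of the labelled age and 6 with one of the labelled genotype, and r with the labelled animal ran from -0.29 to 0.75. The repeats are reported as labelled, and no sample was moved to another group.

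The median member was less abundant than the median eligible gene. On the scale of TPM, which scales counts by library total and transcript length, their median level in Q130 rats of 2 months was 8.41 TPM in the striatum, 8.66 in the cortex, 8.19 in the hippocampus and 11.2 in the cerebellum, against 19.3, 21.8, 23.1 and 27.0 TPM for all eligible genes. The levels of single members ran from 0.512 to 12614 TPM. Their highest level lay in the striatum for 87 members (38.3%, against 12.6% of eligible genes), in the cerebellum for 73 (32.2%, against 56.3%), in the cortex for 37 and in the hippocampus for 30. The transcript length implied by the ratio of counts to TPM was slightly longer than for other eligible genes, with medians of 1.07 and 0.997 relative to the median eligible gene.

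The members together took 2.74% ± 0.19 (SD, n = 10) of all TPM in the striatum of Q130 rats at 2 months and 1.98% ± 0.16 (SD, n = 9) at 6 months. From 2 to 6 months the corresponding shares went from 1.41% ± 0.04 (SD, n = 10) to 1.09% ± 0.06 (SD, n = 10) in the cortex, from 1.57% ± 0.08 (SD, n = 10) to 1.17% ± 0.10 (SD, n = 8) in the hippocampus and from 1.52% ± 0.08 (SD, n = 8) to 1.08% ± 0.04 (SD, n = 10) in the cerebellum, libraries that stood apart left out. Over all 10 libraries the values that changed were 1.90% ± 0.31 (SD) in the striatum at 6 months, 1.25% ± 0.24 (SD) in the hippocampus at 6 months and 1.56% ± 0.17 (SD) in the cerebellum at 2 months. A single gene held much of the share. Without the most abundant member, the striatal share was 1.47% ± 0.09 (SD, n = 10) at 2 months and 1.01% ± 0.07 (SD, n = 9) at 6 months, or 0.976% ± 0.117 (SD, n = 10) with all libraries. These shares are descriptions, and no test was run on them.

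In the WT libraries that chose the genes, the median log2 fold change from 2 to 6 months over the members was -0.37 in the striatum, -0.31 in the cortex, -0.31 in the hippocampus and -0.38 in the cerebellum. These values follow from the selection and are not a result. The selection is a cut through a continuum: 1804 eligible genes were below 0 in all 4 tissues and 2031 above 0 in all 4. For the members just inside the limit, the smallest of the 4 falls was a median difference of -0.1502 and -0.1511, and for the genes just outside it -0.1495 and -0.1486. The list was little changed by the scaling, since relative log expression factors gave 232 genes, of which 218 were shared, and 220 genes remained when the level minimum was required at each age. A limit of -0.20 left 140.

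The mean log2 CPM of the members in each library shows the step in Q130 rats, whose libraries had no part in the selection. They were of the same batch as the WT libraries that chose the genes. Q130 and WT rats of the same age also shared some first parts of their identifiers. The Q130 rats therefore do not separate age from whatever that part stands for. In the striatum the Q130 libraries had a lowest, median and highest mean of 3.99, 4.03 and 4.16 at 2 months and of 3.38, 3.76 and 3.96 at 6 months, so the ages did not overlap. In the cortex the values were 3.77, 3.83 and 3.88 at 2 months and 3.49, 3.56 and 3.65 at 6 months, again without overlap. In the hippocampus they were 3.63, 3.69 and 3.74 at 2 months and 3.23, 3.41 and 3.79 at 6 months. The single hippocampal library of 6 months that overlapped the younger animals was the one that resembled striatum, and without the libraries that stood apart the highest was 3.47. In the cerebellum the values were 3.59, 3.67 and 3.76 at 2 months and 3.19, 3.34 and 3.39 at 6 months, and every older library was below every younger one.

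**Figure D1:**
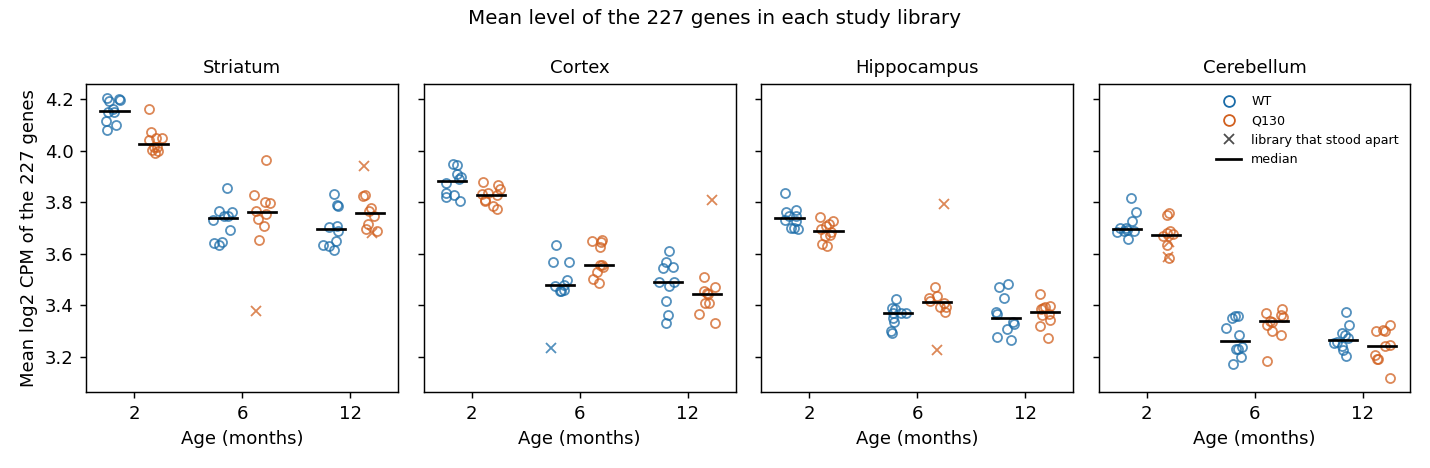
Mean log2 CPM of the 227 genes (y axis) in each study library, by tissue, age in months (x axis) and genotype (blue WT, orange Q130). Circles are libraries, crosses are libraries that stood apart and black bars are group medians over all libraries. In Q130 cortex, libraries of 2 months lie between 3.77 and 3.88 and those of 6 months between 3.49 and 3.65.

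Tested gene by gene in Q130 rats, members were called lower at 6 months in every tissue and 0 members were called higher (edgeR's quasi-likelihood test with sex as a covariate, adjusted p under 0.05 over all genes tested). All 227 members passed the filter on low counts in each comparison. In the striatum 80 members were called lower, where the background of all genes called lower was 3.32%, and 205 of 227 had a log2 fold change below 0. In the cortex 103 were called lower against a background of 4.89%, and 198 were below 0. In the hippocampus 22 were called lower against a background of 0.407%, and 207 were below 0. In the cerebellum 110 were called lower against a background of 4.13%, and 213 were below 0. The median log2 fold change of the members was -0.25, -0.24, -0.21 and -0.32 in these 4 tissues, while the median over all genes tested lay between -0.002 and 0.010. Members called higher, 0 in each tissue, stood beside backgrounds of 4.27%, 3.85%, 0.604% and 2.5%, and at an unadjusted p under 0.05 the members higher numbered 3, 3, 1 and 0. DESeq2 also called 0 members higher in each of these tissues. The shares of all genes higher at that unadjusted p or by DESeq2 are not given, so those counts are not read against a background.

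The calls depended on the libraries that stood apart. Without them, 103 members were called lower and 2 higher in the striatum (background lower 8.53%), 93 lower in the hippocampus (2.42%) and 154 lower in the cerebellum (8.1%), while the cortex, which had no such library at these ages in Q130 rats, had 103 in both cases. The share of all genes called higher without them is not given, so the 2 members called higher are not read against a background. The medians became -0.22, -0.24, -0.26 and -0.32. The part that these libraries' tissue of origin or quality plays was not tested beyond leaving them out.

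**Figure D2:**
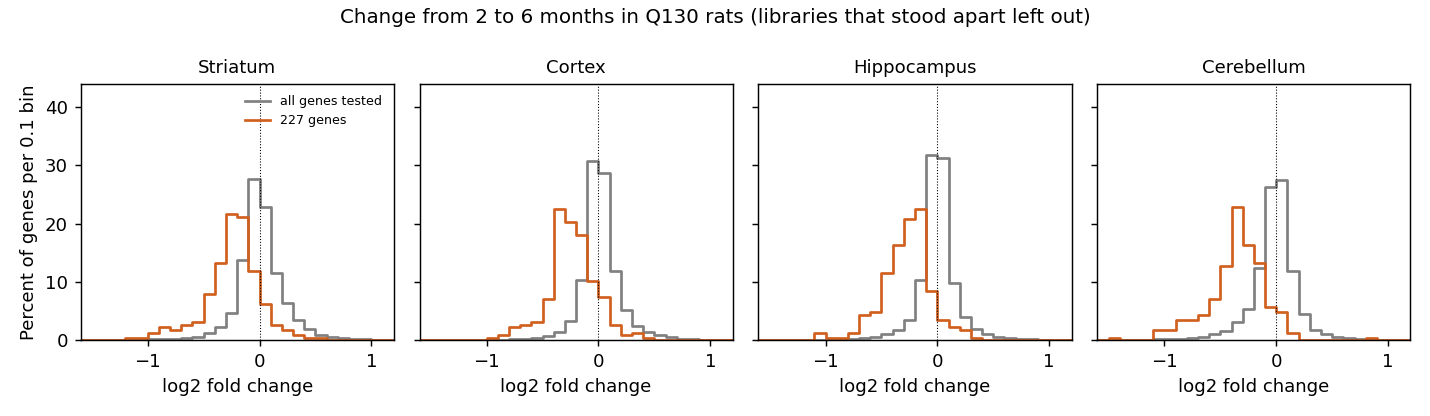
Share of genes (y axis, percent per bin of 0.1) by log2 fold change from 2 to 6 months in Q130 rats (x axis), for all genes tested (grey) and the 227 genes (orange), without the libraries that stood apart. The members' medians lie between -0.32 and -0.22, and those of all genes tested near 0.

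Over the tissues, 156 members were called lower in Q130 rats in at least 1 tissue, against 9.71% of all genes tested, and 71 members in none. The calls fell in 1 tissue for 61 members, in 2 for 44, in 3 for 38 and in all 4 for 13, the last against a background of 0.154%. Without the libraries that stood apart, 54 members were called in all 4 tissues (0.743% of all genes) and 50 in none (16.9% of all genes were called in at least 1). By direction alone, 183 members had a log2 fold change below 0 in all 4 Q130 tissues and 2 in none. By the difference of group medians, 179 members were below 0 in all 4, against 16.2% of eligible genes. The same step of -0.15 between Q130 medians was met in all 4 tissues by 103 of the 227 members and by 80 of the other eligible genes, so that 1.55% of all eligible genes met it. Without the libraries that stood apart, 100 members met it (1.52% of eligible genes).

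When the counts of each Q130 animal were summed over its 4 tissues, 158 members were called lower and 0 higher at 6 months (backgrounds 8.71% lower and 8.17% higher), and 210 were below 0. At an unadjusted p under 0.05, 178 members were lower and 0 higher (15.2% and 14.9% of all genes), and DESeq2 called 163 lower and 0 higher (10.1% and 9.68%). Without the animals of the libraries that stood apart, 150 were called lower (8.29% of all genes). The log2 fold changes in the summed counts ran from -1.01 to 0.31 with a median of -0.25 and quartiles of -0.37 and -0.17. A fall of 0.5 log2 units, 1.41-fold, was reached by 28 members and a fall of 1 log2 unit by 1 member. Of the 69 members that were not called, 52 were below 0 and 17 above. By level, 43 of the 76 least abundant members (0.587 to 5.47 TPM) were called lower, 52 of the 75 in between and 63 of the 76 most abundant (18.9 to 7390.1 TPM), with median log2 fold changes of -0.22, -0.23 and -0.27. The share of all genes called at each level was not counted, so the rise with level is not read as particular to the members.

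The full separation of ages is a stricter description. Every Q130 library of 6 months was below every one of 2 months for 18 members in the striatum (background 0.374%), 30 in the cortex (0.609%), 3 in the hippocampus (0.0827%) and 41 in the cerebellum (0.609%). With the libraries that stood apart left out, the numbers were 20 (background 0.811%), 30 (0.609%), 26 (0.509%) and 66 (1.22%).

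Members differed in where the change was largest. With the libraries that stood apart left out, the lowest Q130 log2 fold change was in the cerebellum for 114 members, in the hippocampus for 52, in the striatum for 34 and in the cortex for 27. A log2 fold change of -0.5 or less was seen for 51 members in the cerebellum, 29 in the hippocampus, 27 in the striatum and 21 in the cortex. All genes tested also had their largest share in the cerebellum in the bin from -0.6 to -0.5. It was 1.03% there, 0.537% in the hippocampus, 0.608% in the striatum and 0.425% in the cortex. The order of tissues is therefore not read as particular to the members. Over all libraries the lowest value lay in the cerebellum for 119 members, in the striatum for 49, in the cortex for 30 and in the hippocampus for 29, so the order of the other tissues changed with those libraries. The difference between tissues was not tested.

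**Figure D3:**
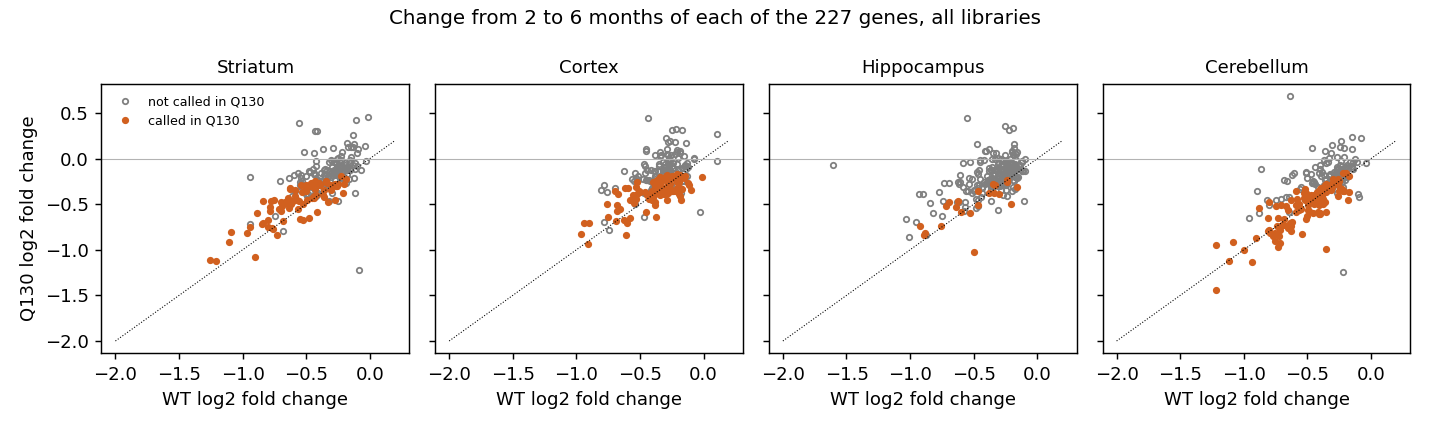
Log2 fold change from 2 to 6 months of each of the 227 genes in WT rats (x axis, used in the selection) and Q130 rats (y axis), by tissue, all libraries. Orange points were called lower in Q130 rats (80, 103, 22 and 110 members), open points were not called, and the dotted line marks equal changes.

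The 13 members called lower in all 4 Q130 tissues had log2 fold changes in the summed counts of -1.01 to -0.29. The largest fall among them was that of ENSRNOG00000009345. In the striatum of Q130 rats this gene had a lowest, median and highest level of 286, 329.8 and 366 CPM at 2 months and of 81.3, 161 and 189 CPM at 6 months, a log2 fold change of -1.11 ± 0.10 (SE; adjusted p = 1.71e-06, edgeR). The lowest older value belonged to the library that resembled hippocampus, which this fold change includes. Without that library the lowest level at 6 months was 129 CPM and the median 165.5 CPM. The cortical levels of the gene were 120.5, 141 and 164 CPM at 2 months and 63.4, 72.6 and 87.0 CPM at 6 months (-0.94 ± 0.05 SE, adjusted p = 3.98e-11). In both tissues the ages were fully separated.

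In the hippocampus ENSRNOG00000009345 had 135, 157 and 176 CPM at 2 months and 65.1, 84.1 and 170.2 CPM at 6 months (log2 fold change -0.81 ± 0.13 SE, adjusted p = 0.0031). The highest older value belonged to the library that resembled striatum, and without the libraries that stood apart the highest was 96.2 CPM and the log2 fold change -0.97 ± 0.07 (SE; adjusted p = 2.77e-07, edgeR). In the cerebellum it had 151, 167 and 264 CPM at 2 months and 68.6, 81.7 and 90.2 CPM at 6 months (-1.12 ± 0.09 SE, adjusted p = 8.13e-08). The highest younger value there came from a library that stood apart, and without such libraries the highest was 195 CPM. Summed over tissues the gene was 2.02-fold lower at 6 months. At 12 months its Q130 medians were 143, 69.0, 68.7 and 70.4 CPM in the striatum, cortex, hippocampus and cerebellum, below or close to those of 6 months. Of these 4 tissues, the cerebellum alone passed the test of 12 against 6 months (log2 fold change -0.18 ± 0.06 SE, adjusted p = 0.0495 by edgeR), an age step in which the batch changes too.

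ENSRNOG00000004882 was the other gene described in full, and it is far less abundant. Its Q130 striatal levels were 5.96, 7.69 and 9.49 CPM (lowest, median, highest) at 2 months and 3.33, 4.43 and 5.06 CPM at 6 months, without overlap (log2 fold change -0.80 ± 0.10 SE, adjusted p = 6.09e-05 by edgeR). Its cerebellar levels were 3.31, 4.41 and 5.32 CPM and then 1.13, 1.53 and 2.11 CPM, also without overlap, the largest change of this gene in the 4 tissues (-1.44 ± 0.12 SE, adjusted p = 1.64e-07). In the cortex the levels fell from 4.78 to 5.98 CPM at 2 months to 2.30 to 4.17 CPM at 6 months (-0.64 ± 0.09 SE, adjusted p = 5.70e-05). In the hippocampus the 2-month range of 4.22 to 6.34 CPM was met by 1 older library, at 4.25 CPM, the one that resembled striatum (-0.83 ± 0.11 SE, adjusted p = 0.000476). From 6 to 12 months it passed the test in the Q130 cerebellum (-0.48 ± 0.15 SE, adjusted p = 0.0326), where its median reached 1.06 CPM.

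**Figure D4:**
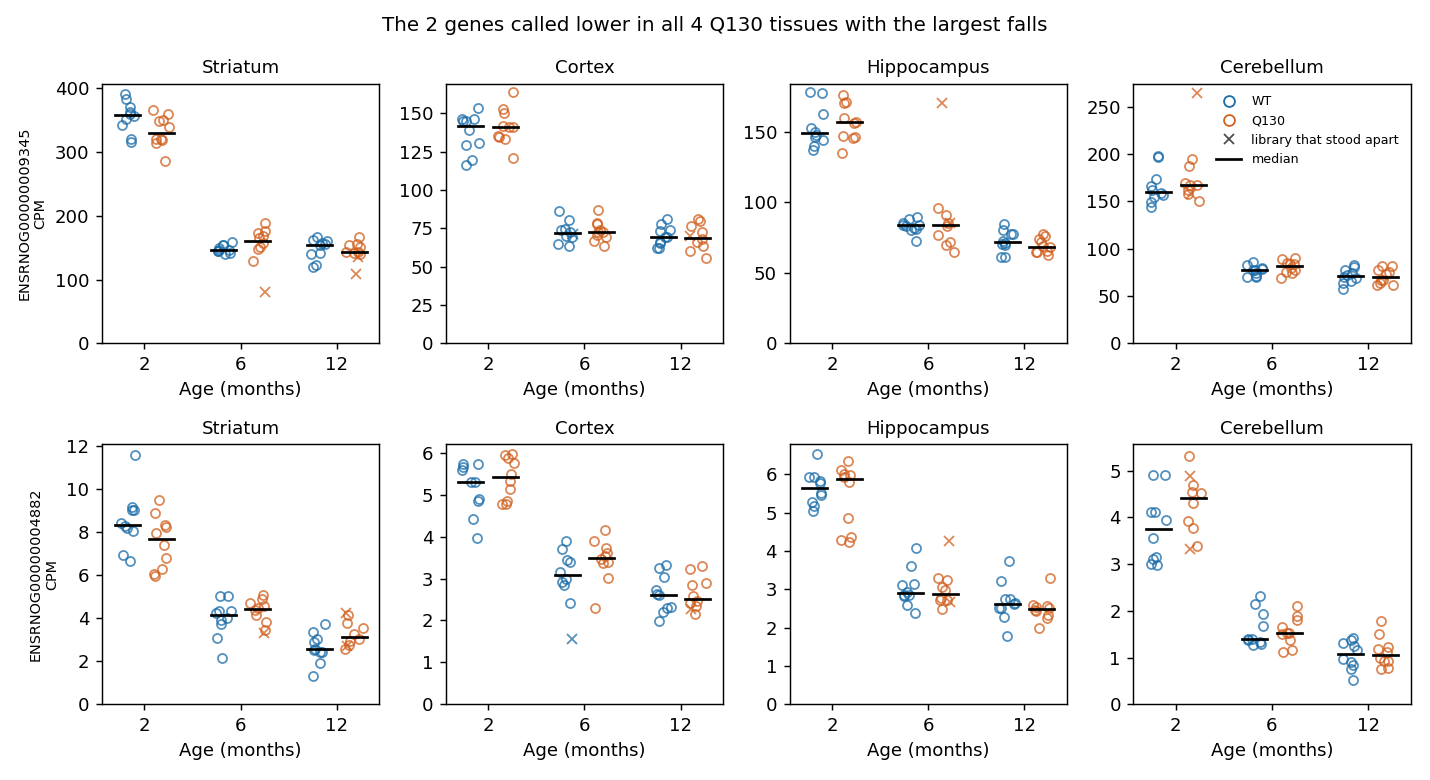
CPM (y axis, linear from 0) of ENSRNOG00000009345 (upper row) and ENSRNOG00000004882 (lower row) in each study library, by tissue, age in months (x axis) and genotype (blue WT, orange Q130). Circles are libraries, crosses are libraries that stood apart and black bars are medians. The Q130 striatal medians of the upper gene are 329.8, 161 and 143 CPM at 2, 6 and 12 months.

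The most abundant member had 12741 ± 1079 TPM (SD, n = 10) in the striatum of Q130 rats at 2 months and 9769 ± 967 TPM (SD, n = 9, without the library that stood apart) at 6 months, or 9216 ± 1973 TPM (SD, n = 10) with it. In the cortex it had 5414 ± 270 TPM (SD, n = 10) and then 4282 ± 345 TPM (SD, n = 10). It was called lower in the cortex (log2 fold change -0.34 ± 0.05 SE, adjusted p = 6.96e-05 by edgeR) and the cerebellum (-0.58 ± 0.10 SE, adjusted p = 0.00136). With all libraries it was not called in the striatum (-0.38 ± 0.14 SE, adjusted p = 0.0973) or the hippocampus (-0.12 ± 0.17 SE, adjusted p = 0.852). Without the libraries that stood apart it was called in both, at -0.29 ± 0.07 (SE; adjusted p = 0.00412, edgeR) and -0.37 ± 0.08 (SE; adjusted p = 0.0104, edgeR). That gene was singled out for its level, after the values had been seen.

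At the other end of the list, the 2 members with the highest log2 fold changes in the summed Q130 counts were not called in either direction. ENSRNOG00000034130 had a value of 0.31 ± 0.31 (SE; adjusted p = 0.55, edgeR) and was listed at 0 CPM in at least 1 Q130 library of 2 months in each tissue, with highest values there of 4.13 to 5.19 CPM. ENSRNOG00000004968 had a value of 0.29 ± 0.15 (SE; adjusted p = 0.212, edgeR). Its Q130 striatal levels of 5.87, 14.3 and 25.4 CPM at 2 months and 13.4 to 25.1 CPM, with a median of 15.8 CPM, at 6 months overlapped almost wholly. For these 2 genes the spread between animals of a group was wider than the difference between ages.

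Both sexes showed the step. The mean over members in Q130 females changed from 2 to 6 months by -0.25 log2 units in the striatum, -0.23 in the cortex, -0.25 in the hippocampus and -0.34 in the cerebellum, and in males by -0.27, -0.27, -0.30 and -0.39, libraries that stood apart left out. With all libraries the female values were the same to 2 decimals and the male values -0.35, -0.27, -0.26 and -0.35. The difference of the step between the sexes was tested for each gene as an interaction of sex and age. Q130 females and males of these ages shared no first part of their identifiers. Sex and whatever that part stands for can therefore not be told apart. In edgeR 0 members were called in each of the 4 tissues, where 0% of all genes were called in either direction. At an unadjusted p under 0.05 the members with a larger fall in males and in females numbered 18 and 4 in the striatum (2.5% and 3.43% of all genes), 13 and 6 in the cortex (2.65% and 3.05%), 8 and 19 in the hippocampus (1.88% and 5.24%) and 31 and 7 in the cerebellum (5.54% and 2.56%). Without the libraries that stood apart they numbered 15 and 5 in the striatum (5.07% and 4.17%), 18 and 7 in the hippocampus (1.79% and 1.89%) and 30 and 4 in the cerebellum (2.78% and 2.3%), so the hippocampal order turned, and edgeR called 1 member in the striatum (0.00625% of all genes). With all libraries DESeq2 called 2 members in the striatum (0.0127% of all genes in that direction), 1 in the cortex (0.0251%), 0 in the hippocampus (0%) and 3 in the cerebellum (0.038%), each with the larger fall in males.

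At 12 months most members stayed below their 2-month level. The Q130 median of 12 months was below that of 2 months for 180 members in the striatum (79.3%), 214 in the cortex (94.3%), 207 in the hippocampus (91.2%) and 211 in the cerebellum (93.0%), against 51.4% to 53.0% of eligible genes, libraries that stood apart left out. With all libraries the numbers were 183, 214, 207 and 212, against 51.9% to 52.9% of eligible genes. The level was lower in all 4 tissues for 168 members, with or without those libraries. The matching share of eligible genes, in Q130 or WT rats, was not counted. The median difference from 2 months was -0.23 at 6 and -0.29 at 12 months in the Q130 striatum, -0.26 and -0.38 in the cortex, -0.26 and -0.30 in the hippocampus and -0.32 and -0.37 in the cerebellum. With all libraries these values were -0.24 and -0.30, -0.26 and -0.37, -0.25 and -0.30, and -0.32 and -0.38. In WT rats, whose 2-month level entered the selection, 192 members were below it in all 4 tissues at 12 months. Age and batch change together between 6 and 12 months and cannot be told apart.

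**Figure D5:**
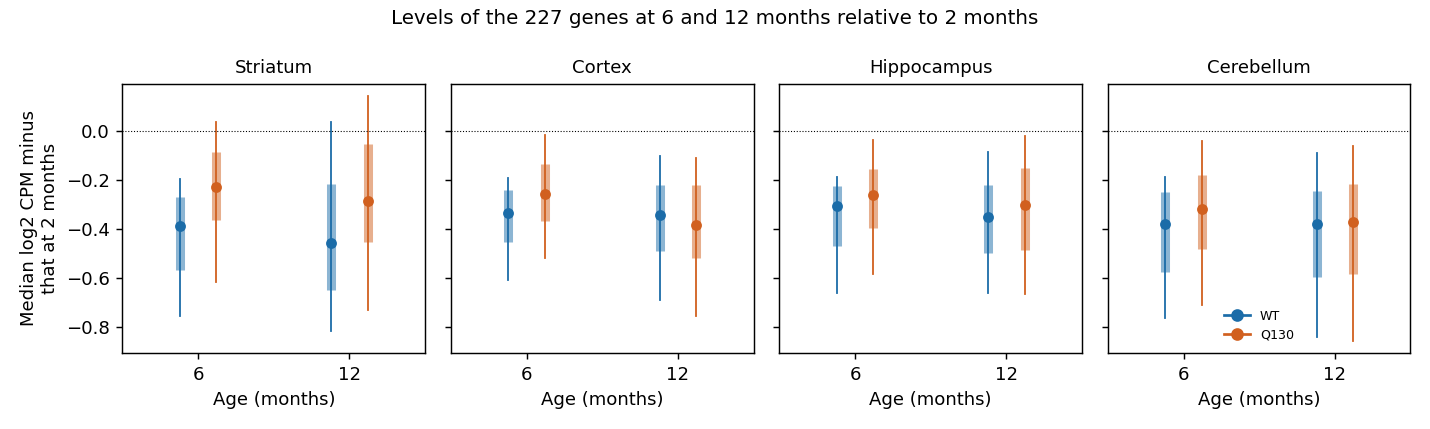
Median log2 CPM of each of the 227 genes at 6 and 12 months (x axis) minus its median at 2 months (y axis), by tissue and genotype (blue WT, orange Q130), without the libraries that stood apart. Points are medians over the genes, thick bars the interquartile range and thin lines the 10th to 90th percentile. In Q130 rats the medians lie between -0.38 and -0.23 at both ages.

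Between 6 and 12 months fewer members were called. In Q130 rats 1 member was called lower and 0 higher in the striatum (backgrounds 1.25% and 1.58%), 10 lower and 0 higher in the cortex (1.51% and 0.813%), 1 lower and 0 higher in the hippocampus (0.204% and 0.102%) and 31 lower and 6 higher in the cerebellum (6.37% and 8.03%), by edgeR. At an unadjusted p under 0.05 the members lower and higher numbered 20 and 28 in the striatum (8.46% and 12.2% of all genes), 63 and 6 in the cortex (9.37% in both directions), 49 and 3 in the hippocampus (10.8% and 7.47%) and 63 and 13 in the cerebellum (13.5% and 14.5%). DESeq2 called 8 lower and 7 higher in the striatum (3.71% and 3.77%), 26 and 1 in the cortex (3.71% and 2.6%), 13 and 0 in the hippocampus (1.55% and 0.877%) and 35 and 6 in the cerebellum (7.92% and 9.48%). Over tissues, 38 members were called lower in at least 1 and 183 in neither direction in any. The matching shares of all genes over the tissues were not counted. Most of the calls lower were in the cerebellum, where 6.37% of all genes were called lower. Without the libraries that stood apart the cortex had 39 lower and 1 higher (4.39% and 3.18%), the striatum 18 lower and 14 higher (8.22% and 8.75%) and the hippocampus 12 lower and 3 higher (1.91% and 2.18%). In the striatum the members' share of calls was thus near the background in both directions. By sign, 103 members were below 0 in the striatum, 141 in the cortex, 162 in the hippocampus and 153 in the cerebellum, with median log2 fold changes of 0.03, -0.07, -0.11 and -0.07. Without those libraries 129, 175, 145 and 153 were below 0, with medians of -0.02, -0.13, -0.05 and -0.07, so the order of the tissues depended on them. The shares of all genes below 0 are not given beside these counts by sign.

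In WT rats the 6-month libraries had helped to choose the genes, so the step to 12 months is given as a description. By edgeR, 59 members were lower and 33 higher in the striatum (backgrounds 20.2% and 19.8%), 1 and 1 in the cortex (0.167% and 0.301%), 21 and 16 in the hippocampus (6.98% and 4.24%) and 18 and 11 in the cerebellum (5.39% and 4.54%). The median log2 fold changes were -0.05, 0.01, -0.02 and -0.02.

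The genotypes were compared at 12 months, an age whose libraries played no part in the selection. At that age the identifiers of WT rats begin differently from those of Q130 rats. Genotype and whatever the first part of the identifier stands for can therefore not be told apart in this comparison. In edgeR 0 members were called between Q130 and WT rats in each tissue, and the background was 0% in both directions in the striatum, cortex and hippocampus and 0.65% lower and 0.832% higher in the cerebellum. DESeq2 also called 0 members, with backgrounds of at most 0.0275% in the striatum, cortex and hippocampus and of 2.38% lower and 2.76% higher in the cerebellum. At an unadjusted p under 0.05, members lower and higher in Q130 rats numbered 3 and 27 in the striatum (3.42% and 6.39% of all genes), 12 and 5 in the cortex (1.73% and 2.4%), 6 and 11 in the hippocampus (2.36% and 2.21%) and 15 and 11 in the cerebellum (8.91% and 9.87%). The median differences over members were 0.08, 0.01, 0.02 and -0.01 log2 units. In the striatum 163 members were higher and 64 lower in Q130 rats by the sign of their difference, where 43.4% of all genes were lower. At this age 2 striatal and 1 cortical Q130 library stood apart. Without them edgeR again called 0 members, the numbers at an unadjusted p under 0.05 were 4 lower and 36 higher in the striatum (6.62% and 6.42%) and 18 lower and 4 higher in the cortex (3.3% and 2.75%), and the medians were 0.07 and -0.03. By sign, 170 striatal members were then higher and 57 lower (49.4% of all genes lower), and the cortical median had changed its sign.

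At 2 and 6 months the WT libraries had chosen the genes, so those differences are given without a test. At 2 months the members' median difference of Q130 minus WT was -0.12 log2 units in the striatum, with 205 of 227 below 0, and -0.03, -0.03 and -0.02 in the cortex, hippocampus and cerebellum. The striatal means over members ran from 4.08 to 4.21 in WT libraries and from 3.99 to 4.16 in Q130 libraries, where the highest library (male 5) was followed by one at 4.07. At 6 months the median differences were 0.01, 0.07, 0.09 and 0.04 in the striatum, cortex, hippocampus and cerebellum, and 0.05, 0.04, 0.04 and 0.04 without the libraries that stood apart. The WT values at both ages had been used to choose the genes, so nothing is read from these differences.

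The repeat striatal libraries, as labelled, gave another reading of the step from 2 to 6 months. In the Q130 males of batch 2, with 3 libraries per age, edgeR called 0 members and 0% of all genes in either direction. At an unadjusted p under 0.05, 2 members were lower and 1 higher (0.309% and 0.322% of all genes), and DESeq2 called 0 members (0.00669% of all genes lower and 0% higher). The members' median log2 fold change there was -0.04. By library medians the difference was -0.03 in the Q130 repeats and -0.31 in the WT repeats, and in the first libraries of the same animals -0.34 and -0.40. The means over members of the labelled Q130 repeats ran from 3.67 to 4.16 at 2 months and from 3.61 to 4.02 at 6 months and overlapped, while those of the first libraries ran from 4.05 to 4.16 and from 3.71 to 3.76 and did not. For ENSRNOG00000009345 the labelled Q130 repeats of 2 months had 158, 161 and 394 CPM and those of 6 months 158, 167 and 344 CPM, so each labelled age held libraries at the level of both ages. Since 10 of the 12 repeats did not match the animal of their label, nothing is read from this comparison about the step between ages.

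Over all 12 animals together, the mean difference of repeat and first libraries is the same however repeats are assigned to the animals, but a test blocked on the animal takes each repeat as labelled. Without the block, edgeR called 0 members (backgrounds 3.77% lower and 2.21% higher), 4 were lower and 0 higher at an unadjusted p under 0.05 (9.6% and 8.1% of all genes), and the median log2 difference of repeat minus first was -0.003. With the animal as a block, which rests on the labels, 0 members were called by edgeR (backgrounds 2.82% and 1.05%) or DESeq2 (3.77% and 1.93%), 6 were lower and 0 higher at an unadjusted p under 0.05 (8.84% and 7.12%), and the median was -0.004. These libraries mix 2 and 6 months, the ages between which the members were chosen to differ. Without the block that difference widens the members' spread, and a block on labels that most repeats did not match need not remove it. The 0 calls therefore do not show that the members lack a shift between batches. Between 6 and 12 months within batch 2, the Q130 striatal males, the younger ones as labelled, gave 0 members called by edgeR (0% of all genes), 24 lower and 11 higher at an unadjusted p under 0.05 (4.93% and 7.54%) and a median of -0.06, while DESeq2 called 4 lower and 3 higher (1.43% and 2.07%). With 1 library of 12 months left out (male 3, which stood apart), edgeR called 6 members lower and 5 higher (2.82% and 4.86% of all genes).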

How the data were processed

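Tissues were flash frozen, total RNA was taken with a Qiagen kit, and Illumina libraries were made, per the labels' protocols. The sources used here give no aligner, counter or build. Per the file's values, the authors' first table holds estimated counts (expected counts) of 32883 genes, rounded here to whole numbers. They also deposited a table named FPKM whose columns each sum to the total of TPM. The authors' TPM values were used for levels only. Columns were matched to samples by the identifiers in the labels, and for the 12 animals sequenced again the dotted column name was read as the repeat. None of the identifiers matched the reference names (0 of 32883), so the lists of marker and pathway genes could not be tested.

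Tests used edgeR 4.0.16 in R 4.3.3 (filterByExpr, TMM, robust quasi-likelihood F test, sex as covariate, Benjamini-Hochberg over all genes tested, called at 0.05), with the libraries of the groups compared. DESeq2 1.42.0 was an alternative. Log2 CPM used a prior count of 2. The check on simulated data was made only for the edgeR test between the younger ages in the Q130 cortex. The other tests were not checked in this way. The correlation between libraries used genes with a mean of at least 10 counts. Genes followed the animal where their level, with a mean of at least 50 counts and an SD of at least 0.3, correlated at 0.7 or more between the other tissues. The members and lists were chosen with earlier results of these data known. Named genes are the members called lower in most Q130 tissues, ties broken by the summed fold change, and those with the highest summed fold change; as symbols were lacking, 2 of each are given by identifier. Replicates are separate animals. The 2 most alike libraries of any group still differed by 2.80 times the counting noise.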

Additional observations from a re-analysis of the deposited data

Results flagged for a closer look

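In 48 sets of 10 libraries (the mean over members in each study group, and the CPM of described genes in Q130 groups), 13 had a highest or lowest library far from the others, where chance gives a share of about 0.05. For the mean log2 CPM of the members these were 3.38 in the Q130 striatum (male 1) and 3.79 in the Q130 hippocampus (male 5) of 6 months, the pair from 1 animal that each resembled the other tissue. Others were 3.23 in the WT cortex of 6 months (male 4) and 3.81 in the Q130 cortex of 12 months (male 4), which also stood apart from their tissue. A value of 4.16 in the Q130 striatum of 2 months (male 5) and of 3.19 in the Q130 cerebellum of 6 months (female 5) came from libraries that did not stand apart over all genes. For ENSRNOG00000009345 the values were 263.9 CPM in the Q130 cerebellum of 2 months (male 1) and 170.2 CPM in the Q130 hippocampus of 6 months (male 5), and for ENSRNOG00000004882 4.25 CPM in the latter library. The most abundant member had 10188 CPM in the Q130 cerebellum of 2 months (male 1), 18962 CPM in the Q130 striatum of 2 months (male 5), 12959 CPM in the Q130 hippocampus of 6 months (male 5) and 4736 CPM in the Q130 striatum of 6 months (male 1). The 48 sets are not independent: the same libraries recur, and the described genes are among the members averaged. The 13 are thus not separate events to be set against the share of 0.05.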

How the results depend on the processing

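Counts are of members called lower. The share of all genes called lower moves with the setting too. In the Q130 hippocampus from 2 to 6 months it was 0.407% with all libraries and 2.42% without those that stood apart. Shares under the other settings are given only where stated in the sections above. A moved count is therefore not read as a change in the members alone. From 2 to 6 months in Q130 rats, the counts of the striatum, cortex and cerebellum stayed within 1.5 times under every alternative run. The hippocampus moved from 22 to 47 with DESeq2, 93 without the libraries that stood apart and 8 with the replicate block. Some other values turned without those libraries, as given above. They include the hippocampal order of the sexes at an unadjusted p under 0.05. With the limit of -0.20 the summed counts gave 104, by construction of a shorter list. From 6 to 12 months the Q130 striatum moved from 1 to 2 with relative log expression factors, 8 with DESeq2, 18 without those libraries and 0 with the replicate block. The Q130 cortex moved from 10 to 26 with DESeq2, 39 without those libraries, 3 with the replicate block and 6 at -0.20. The Q130 hippocampus moved from 1 to 0 with no filter, 13 with DESeq2, 12 without those libraries and 0 with the replicate block, and the Q130 cerebellum from 31 to 20 with the replicate block. The WT striatum moved from 59 to 34 at -0.20, and the WT cortex from 1 to 7 with DESeq2, 13 without its library that stood apart, 0 with the replicate block and 0 at -0.20. In batch 2, DESeq2 gave 4 from 6 to 12 months, and leaving out 1 library at a time gave 0 to 6. The sex interaction had 2, 1 and 3 members with DESeq2 in the striatum, cortex and cerebellum and 1 in the striatum without the libraries that stood apart. WT medians at -0.20 were -0.46, -0.38 and -0.45 in the striatum, cortex and cerebellum. Apart from the shorter list, the cause of these moves was not tested. Replicate numbers did not pair the animals: deviations of same-numbered libraries correlated at -0.35 to 0.32, and in 0 of 20 comparisons were all pairs above 0.1. Where the block moved a count it is given above. It changed no other count by over 1.5 times. The effect of depth on these counts was not tested.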
